A study of Mus musculus with 7 samples.

Results

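Transcripts of 33 genes of the rod photoreceptor were followed across Agbl5 genotypes. The genes were taken by name from the 54532 genes of an expression table: 14 of the phototransduction cascade, 6 of guanylate cyclase and calcium feedback, 6 of outer segment structure and 7 other rod or photoreceptor genes. All 33 were in the table, and all 33 passed the filter on low values, a mean of at least 1 FPKM (fragments scaled by exon length and library size) over the 7 libraries. RNA selected for polyadenylated transcripts was sequenced from mouse samples of 3 genotypes, wildtype (n = 2), heterozygous (n = 2) and knockout (n = 3) for Agbl5, which encodes a deglutamylase that removes glutamate side chains from tubulin. The series asked how excess tubulin glutamylation affects photoreceptors. Strain, allele and age were not given in the sources used here, nor whether the replicates of a genotype were separate animals, so p-values may measure only technical spread.

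Rods detect light in the outer segment, a stack of membrane discs built on a modified cilium. Light-activated visual pigment switches on transducin, transducin releases the inhibition of phosphodiesterase 6, and the fall in cyclic GMP closes cation channels in the plasma membrane. Recovery needs phosphorylation and capping of the pigment, hydrolysis of GTP on transducin, and renewed synthesis of cyclic GMP by guanylate cyclases that are stimulated when calcium falls. Loss of many of these proteins is a known cause of retinal degeneration.

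The table held FPKM as computed by the authors, and whole reads recovered from it summed to between 12253800 and 14358900 per library. In the order of the labels, Agbl5 read 9.89 and 8.56 FPKM for wildtype, 4.21 and 5.34 for heterozygous, and 1.53, 1.73 and 1.26 for knockout. The tissue label named the whole eyeball and the extraction protocol named retina. Lens RNA set 2 libraries apart: the crystallin gene Cryaa reached 1733 FPKM in heterozygous 1 and 2541 FPKM in knockout 1, against 1.11 to 12.3 FPKM in the other 5. Whether less RNA from a cell type means fewer cells or less RNA per cell cannot be told apart in such bulk samples. Differences were tested with limma on log2(FPKM + 1) over 15472 genes, with Benjamini-Hochberg adjustment and a threshold of 0.05. The heterozygous and wildtype libraries together are called controls, and the comparisons of knockout libraries with them and with each genotype share libraries.

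No gene of the 33 passed the threshold in any comparison. Against wildtype, 0 of 33 passed, beside 0.323% of all genes tested, and against heterozygous libraries 0 of 33, beside 0.317%. Against all controls, 0 of 33 passed, beside 0.614% of all genes. At an unadjusted p under 0.05 the last comparison held 8 of the 33, 2 higher and 6 lower, beside 12.2% of all genes, 6.76% higher and 5.46% lower. Against wildtype that count was 5, 2 higher and 3 lower, beside 7.5%, 4.26% higher and 3.24% lower. Against heterozygous libraries it was 8, 2 higher and 6 lower, beside 12%, 7.11% higher and 4.91% lower. A second test, limma's voom on the recovered reads of 31 of the genes, passed Sag alone against controls and against heterozygous libraries, and none against wildtype.

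All 33 genes ranked among the 901 most abundant of the table by mean FPKM over the 7 libraries. In knockout libraries the median log2 change of the 33 genes was -0.08 against wildtype, with 22 of them below 0, where 51.0% of all genes were below 0 around a median of -0.00. Against heterozygous libraries the median was -0.01, with 17 of 33 below 0, where the median of all genes was 0.01. Against all controls the median was -0.04, with 19 of 33 below 0, where 49.2% of all genes were below 0. In that comparison the 95% interval of 31 genes lay within 0.5 log2 units of 0, and the exceptions were Sag and Samd7. The share of all genes tested was 77.9%, but those include genes of far lower level and were not matched to the 33.

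In 13 of the 33 genes the 3 knockout libraries did not overlap the 4 controls, beside 13% of all genes tested. That share was not matched for level either, and the 33 are all abundant. Sag and Impg2 were higher in every knockout library, 2 of 33 beside 6.75%. Lower in every knockout library were 11 of 33, beside 6.26%: Gnat1, Gnb1, Pde6a, Pde6b, Cnga1, Rgs9bp, Gucy2f, Slc24a1, Prph2, Reep6 and Impg1. This count was chosen after the data had been seen. On the TPM scale, which moved the median of all genes by -0.12 log2 units against controls, it was 12, with Sag the only gene higher and 13.5% of all genes lower. There Impg2, Impg1 and Slc24a1 overlapped, while Nxnl1 and Pdc were lower in every knockout library. Most of these separations were small, and only Gnb1, Cnga1, Rgs9bp, Gucy2f and Reep6 among the 11 had an unadjusted p under 0.05.

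**Figure D1:**
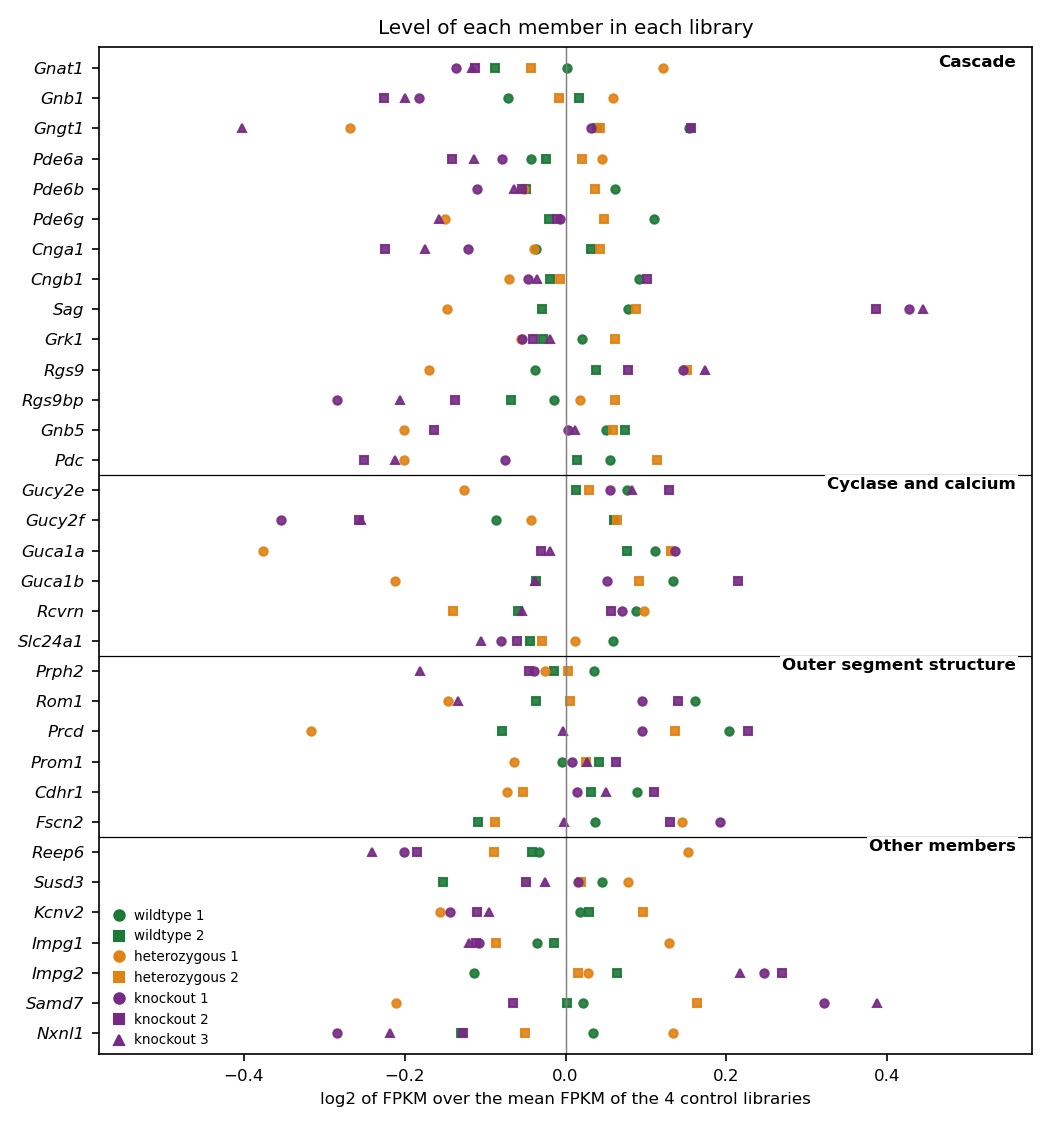
Each row is a gene, each point a library, and the horizontal axis is log2 of the FPKM over the mean FPKM of the 4 controls. Color gives the genotype and shape the replicate number. The 3 knockout points of Sag and Impg2 lie right of every control point, and those of Gucy2f, Cnga1, Gnb1 and Rgs9bp lie left of them.

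In the cascade, Sag was highest in all 3 knockout libraries, while transducin, phosphodiesterase and channel genes were level or slightly lower. The 14 genes summed to 6616 to 6700 FPKM in knockout libraries and to 6871 to 7116 FPKM in controls, without overlap. That separation depended on the summary. The mean log2(FPKM + 1) of the 14 genes overlapped, at 8.21 to 8.25 in knockout libraries and 8.20 to 8.33 in controls. Their median log2 change against controls was -0.07. Gnat1, the rod transducin alpha subunit, carried much of that sum, with 2672 and 2512 FPKM in wildtype, 2904 and 2590.1 in heterozygous, and 2428, 2468 and 2463 in knockout libraries. All 3 knockout values lay under the lowest control, but the difference of -0.12 ± 0.08 (log2, SE) did not pass, with an adjusted p of 0.578 by limma.

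The transducin beta subunit Gnb1, which rods share with many other cells, was at 838 and 890.3 FPKM in wildtype, 917 and 875 in heterozygous, and 775, 752 and 766 in knockout libraries. No knockout library reached the lowest control. The log2 change against controls was -0.20 ± 0.06 (SE; limma, adjusted p = 0.257). The rod gamma subunit Gngt1 overlapped throughout, at 84.1 to 124 FPKM in knockout libraries and 92.3 to 124 FPKM in controls, with knockout 3 the lowest of all.

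Phosphodiesterase 6 is built of 2 catalytic subunits and inhibitory gamma subunits, and it hydrolyses cyclic GMP. The catalytic subunit gene Pde6a was at 492 to 514 FPKM in knockout libraries and 527 to 559.7 FPKM in controls. Its partner Pde6b was at 395 to 411 FPKM against 412 to 445 FPKM, so the nearest libraries of the groups nearly touched. Adjusted p-values were 0.446 and 0.611 (limma). Pde6g, the inhibitory subunit, overlapped, at 527 to 585 FPKM against 530.1 to 635 FPKM. The ratio of Pde6a to Pde6b was 1.2 to 1.30 in knockout libraries and 1.18 to 1.36 in controls, so the proportion of these partners overlapped between the groups.

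The cyclic GMP-gated channel pairs a main subunit, Cnga1, with a modulatory subunit, Cngb1. Cnga1 was at 115 and 121 FPKM in wildtype, 115 and 121 in heterozygous, and 108, 101 and 104 in knockout libraries. The knockout values were all lower, with a log2 difference of -0.17 ± 0.05 (SE) and an adjusted p of 0.242 by limma. Cngb1 stood at 84.4 to 93.5 FPKM in knockout libraries and 83 to 92.9 FPKM in controls, an overlap, with a change of 0.01 ± 0.06 (SE). The ratio of Cngb1 to Cnga1 was 0.779, 0.927 and 0.814 in knockout libraries and 0.714 to 0.808 in controls, with overlap.

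Sag encodes rod arrestin, which caps the phosphorylated pigment and ends its signal. The gene (ENSMUSG00000056055) spans chr1:87803680-87845158 on the plus strand of GRCm38, with 17 merged exons. It was at 377 and 350.0 FPKM in wildtype, 322 and 379.6 in heterozygous, and 480.4, 467 and 486 in knockout libraries. The lowest knockout library was above the highest control by more than the spread within either group, with means of 478 ± 9.75 (SD, n = 3) and 357 ± 26.8 FPKM (SD, n = 4). The log2 change was 0.42 ± 0.07 (SE; 95% interval 0.26 to 0.58), the largest positive change among the 33, with an adjusted p of 0.0591 against controls, 0.29 against wildtype and 0.169 against heterozygous libraries (limma). Over the alternatives tried for the comparison with controls, the adjusted p ran from 0.00585 (voom) to 0.297 (replicate block), and the log2 change from 0.37 to 0.45. A filter at a mean of 5 FPKM also passed it, with an adjusted p of 0.0368. The FPKM of Sag used a merged exon length of 8904 bases, while its principal transcript has 1719, so its level cannot be set beside that of a gene whose lengths match.

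The Sag promoter is shown because Sag had the largest positive change of the 33, and matches to 2 short motifs are in capitals: TAATCC, the core bound by Crx-type homeodomain factors, and TGCTGA, part of the element bound by Maf-type factors such as Nrl, each searched on both strands. The stretch is the 250 bases before the start of the gene, chr1:87803430-87803679 on the plus strand, from RefSeq on GRCm38.p6.

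Sag: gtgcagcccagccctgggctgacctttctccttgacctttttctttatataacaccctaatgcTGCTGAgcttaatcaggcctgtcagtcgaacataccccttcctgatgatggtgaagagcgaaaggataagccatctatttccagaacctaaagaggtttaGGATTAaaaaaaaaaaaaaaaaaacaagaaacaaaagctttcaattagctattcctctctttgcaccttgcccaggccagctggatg

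TGCTGA lay 187 bases and TAATCC 87 bases before the start of Sag. Promoter entries matched 25 of the 33 genes. TAATCC was in 9 of those 25 windows (36.0%) and in 6.25% of 32851 promoters, and TGCTGA was in 4 of 25 (16.0%) and in 16.1%. The matches are letters in a window, with no measure of binding here.

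Grk1, the kinase that phosphorylates active pigment, overlapped fully, at 246 to 251 FPKM in knockout libraries and 245 to 266 FPKM in controls. The complex that speeds GTP hydrolysis joins Rgs9, Gnb5 and the membrane anchor Rgs9bp. Rgs9bp was at 159 and 154 FPKM in wildtype, 163 and 168 in heterozygous, and 132, 146 and 139.6 in knockout libraries, each below every control (log2 change -0.21 ± 0.06, SE; limma, adjusted p = 0.221). Its partner Rgs9 was at 131 to 140.2 FPKM in knockout libraries and 111 to 138 FPKM in controls, so their ranges overlapped. The change of Rgs9 was 0.14 ± 0.08 (SE; limma, adjusted p = 0.517). Gnb5 was at 201 to 227 FPKM against 196 to 237 FPKM, and part of its exons overlap another gene on the other strand, whose reads could not be told apart. Phosducin, Pdc, which binds transducin beta-gamma, was at 420.3 to 475 FPKM against 435 to 541 FPKM, an overlap that rested on heterozygous 1.

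**Figure D2:**
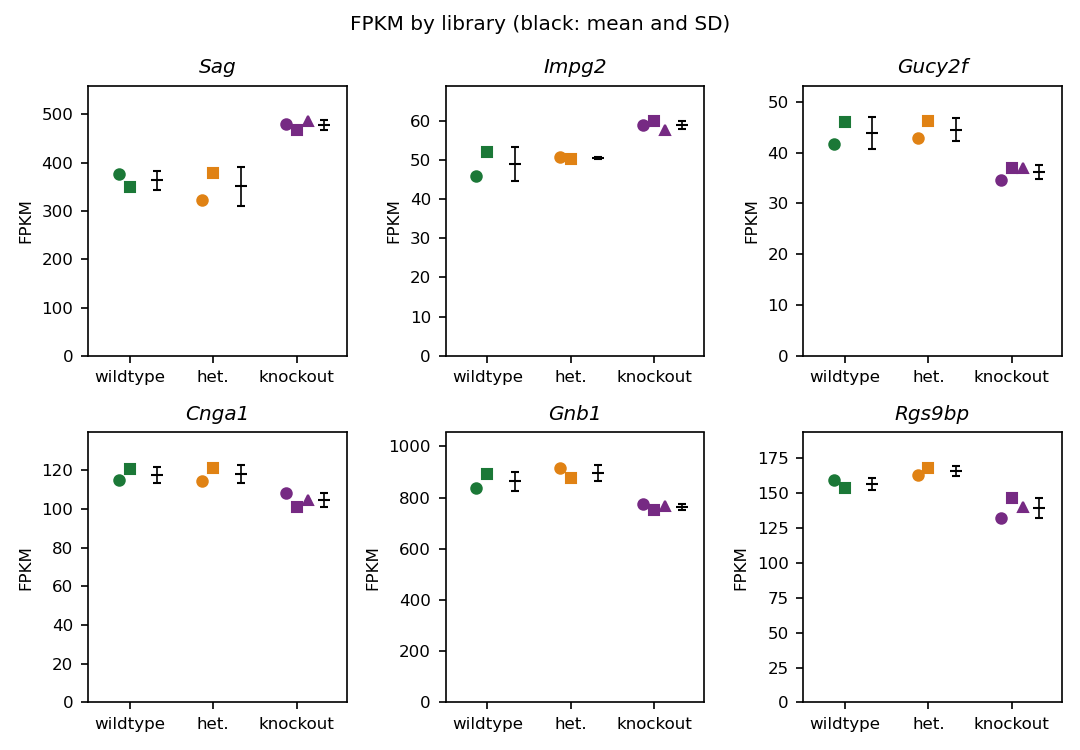
FPKM of 6 genes by genotype, where het. means heterozygous, circles are replicate 1, squares replicate 2 and triangles replicate 3, with the mean and SD in black. The 3 knockout libraries are above all controls for Sag (467 to 486 FPKM) and Impg2 and below all controls for the other 4.

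Among the 6 genes of guanylate cyclase and calcium feedback, Gucy2f was lower in every knockout library and its paralog Gucy2e was not. Both encode membrane guanylate cyclases that make cyclic GMP in the outer segment. Gucy2f (ENSMUSG00000042282) spans chrX:142081160-142196931 and Gucy2e (ENSMUSG00000020890) chr11:69218117-69237036, both on the minus strand of GRCm38. Gucy2f was at 41.6 and 46.1 FPKM in wildtype, 42.9 and 46.2 in heterozygous, and 34.6, 37.0 and 37.1 in knockout libraries. All 3 knockout values were under the lowest control, and the log2 change of -0.28 ± 0.06 (SE; 95% interval -0.41 to -0.15) was the lowest of the 33, with an adjusted p of 0.113 (limma). Gucy2e was at 82.1 and 78.6 FPKM in wildtype, 71.4 and 79.4 in heterozygous, and 80.9, 85.1 and 82.5 in knockout libraries, which overlapped, with a change of 0.09 ± 0.06 (SE). The ratio of the paralogs also separated the groups: Gucy2f over Gucy2e was 0.427, 0.435 and 0.449 in knockout libraries and 0.507 to 0.601 in controls.

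The promoters of both cyclases are shown to set the paralogs side by side, with TAATCC on either strand in capitals. They are the 250 bases before each start, chrX:142196937-142197186 and chr11:69237023-69237272, both on the minus strand (RefSeq, GRCm38.p6). These starts are those of RefSeq, while the gene spans above are from GENCODE, so the windows do not abut the spans exactly.

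Gucy2f: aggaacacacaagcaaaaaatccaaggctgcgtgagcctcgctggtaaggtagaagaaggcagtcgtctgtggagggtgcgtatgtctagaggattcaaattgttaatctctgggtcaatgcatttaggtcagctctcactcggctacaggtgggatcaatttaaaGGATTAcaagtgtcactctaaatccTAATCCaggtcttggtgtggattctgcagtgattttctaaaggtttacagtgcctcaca
Gucy2e: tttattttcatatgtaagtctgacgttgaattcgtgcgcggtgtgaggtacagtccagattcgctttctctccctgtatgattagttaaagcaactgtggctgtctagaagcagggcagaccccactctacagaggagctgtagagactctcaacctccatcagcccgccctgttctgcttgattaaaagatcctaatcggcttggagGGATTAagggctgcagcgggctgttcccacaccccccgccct

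Gucy2f held TAATCC at 84 and 59 bases before its start and Gucy2e at 42, and neither held TGCTGA. The motif was thus in both windows, and any part of it in the level of either gene was not tested.

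The cyclase-activating proteins Guca1a and Guca1b sense the fall in calcium. Guca1a was at 604 to 678 FPKM in knockout libraries and 476 to 676 FPKM in controls, where heterozygous 1 alone was under 651. Guca1b was at 395 to 471 FPKM against 350.5 to 445 FPKM. Recoverin, Rcvrn, which holds back Grk1 when calcium is high, was at 465 to 507 FPKM against 438 to 517 FPKM. These 3 calcium sensors thus overlapped between the groups, with log2 changes of 0.04, 0.08 and 0.03. Slc24a1, the exchanger that carries calcium out of the outer segment, was at 231 to 239 FPKM against 241 to 259 FPKM, lower in every knockout library, with a log2 difference of -0.08 ± 0.05 (SE) and an adjusted p of 0.532 by limma.

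Among the genes of outer segment structure only Prph2 separated the groups. The median log2 change of the 6 against controls was 0.05, from -0.09 to 0.12, and their summed FPKM overlapped, at 2472 to 2794 in knockout libraries and 2556 to 2868 in controls. Prph2, the tetraspanin of the disc rim, was at 1343 and 1297 FPKM in wildtype, 1287 and 1312 in heterozygous, and 1274, 1269 and 1155 in knockout libraries. All 3 were below the controls, but knockout 1 and 2 only by a little, and the adjusted p was 0.618 (limma). Its partner Rom1 overlapped, at 839.9 to 1015 FPKM against 832 to 1029 FPKM, and the ratio of Rom1 to Prph2 was 0.727 to 0.800 against 0.647 to 0.767.

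Prcd, a small protein of disc membranes, was at 100.5 to 118 FPKM in knockout libraries and 80.9 to 116 FPKM in controls. Prom1 and Cdhr1 act where new discs form at the base of the outer segment. Prom1 stood at 131 to 136 FPKM against 124 to 134 FPKM and Cdhr1 at 199 to 212 FPKM against 187 to 209 FPKM, so neither separated the groups. Fscn2, an actin-bundling protein of photoreceptors, was at 39.8 to 45.5 FPKM against 36.9 to 44.0 FPKM, also with overlap. Some exons of Prcd and Prom1 overlap genes on the other strand, so their reads may include those genes.

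**Figure D3:**
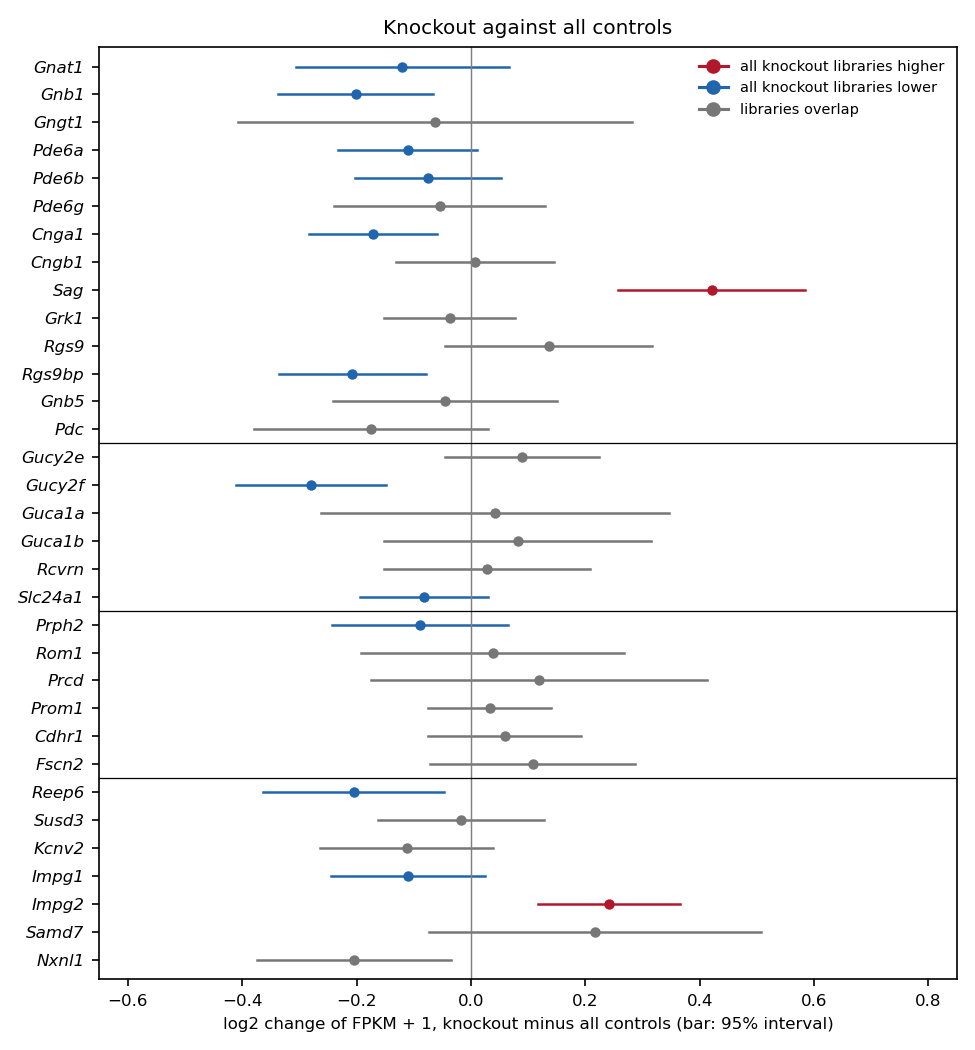
Points are log2 changes of FPKM + 1 in knockout against all controls and bars their 95% intervals from limma, with color for genes whose knockout libraries lay above or below every control. Most intervals are within 0.5 of 0, and Sag at 0.42 and Gucy2f at -0.28 mark the ends of the range.

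Of the 7 other genes, Impg2 was higher and Reep6 and Impg1 lower in every knockout library. Impg1 and Impg2 encode proteoglycans of the matrix between photoreceptors. Impg2 (ENSMUSG00000035270) spans chr16:56204313-56273756 on the plus strand, with 22 merged exons. Impg2 was at 45.9 and 51.9 FPKM in wildtype, 50.7 and 50.2 in heterozygous, and 58.9, 59.9 and 57.7 in knockout libraries. The groups were separated, with a log2 difference of 0.24 ± 0.05 (SE) and an adjusted p of 0.147 by limma, although on the TPM scale they overlapped. Impg1 was at 76.0 to 76.7 FPKM in knockout libraries and 77.8 to 90.3 FPKM in controls, and did not pass either (adjusted p = 0.488, limma). Its libraries overlapped on the TPM scale too.

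The Impg2 promoter is shown as the other gene that was higher in every knockout library, from chr16:56204063-56204312 on the plus strand (RefSeq, GRCm38.p6), and it held neither motif.

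Impg2: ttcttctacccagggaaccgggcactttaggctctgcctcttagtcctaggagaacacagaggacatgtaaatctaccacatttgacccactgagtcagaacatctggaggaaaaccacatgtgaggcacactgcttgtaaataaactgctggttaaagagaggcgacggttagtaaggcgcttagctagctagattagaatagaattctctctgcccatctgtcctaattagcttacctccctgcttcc

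Reep6, which shapes membrane of the endoplasmic reticulum in rods, was at 353 and 351 FPKM in wildtype, 402 and 339.8 in heterozygous, and 314, 318 and 306 in knockout libraries. The knockout values were all lower (log2 change -0.21 ± 0.07, SE; limma, adjusted p = 0.311). Nxnl1, which encodes the rod-derived cone viability factor, was at 80.7 to 90.0 FPKM against 89.8 to 108 FPKM, with wildtype 2 just under the highest knockout library. Its log2 change was -0.20 ± 0.07 (SE; limma, adjusted p = 0.338). Kcnv2, a modulatory potassium channel subunit, was at 120.0 to 124 FPKM against 119 to 142 FPKM, and Susd3 was at 38.2 to 39.9 FPKM against 35.6 to 41.7 FPKM. Samd7, a repressor of gene expression in photoreceptors, was at 60.2, 46.0 and 63.0 FPKM against 41.6 to 54.0 FPKM in controls. Knockout 2 lay inside the control range, and the interval of its change, -0.07 to 0.51, was among the widest of the 33.

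Ratios of a rod gene to its cone counterpart, or to a partner, within a library do not move with library scaling. Of 18 such ratios, 1 was higher and 3 were lower in every knockout library than in every control. No share over other gene pairs was computed, and some of the 18 share a gene, so the count describes these pairs only. Sag over the cone arrestin Arr3 was 3.82, 3.98 and 3.99 in knockout libraries and 2.10, 2.21, 2.64 and 2.13 in controls. Gnb1 over the cone transducin subunit Gnb3 was 3.01, 2.84 and 3.33 against 6.10, 7.05, 7.93 and 7.03. Gnb3 itself rose from 126 ± 8.88 (SD, n = 4) to 251 ± 18.2 FPKM (SD, n = 3), a log2 difference of 0.99 ± 0.08 (SE) with an adjusted p of 0.0013 by limma. Arr3 was at 159 ± 26.6 (SD, n = 4) and 122 ± 4.22 FPKM (SD, n = 3), overlapped through heterozygous 1 and did not pass (adjusted p = 0.336, limma). Rgs9bp over Rgs9 was 0.961, 1.12 and 0.996 against 1.2 to 1.48, and Gucy2f over Gucy2e was given above. The other 14 ratios overlapped, among them Gnat1 over Gnat2, at 42.2 to 49.4 against 41.8 to 52.3, and Gngt1 over Gngt2, at 6.66 to 6.93 against 6.51 to 7.03.

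**Figure D4:**
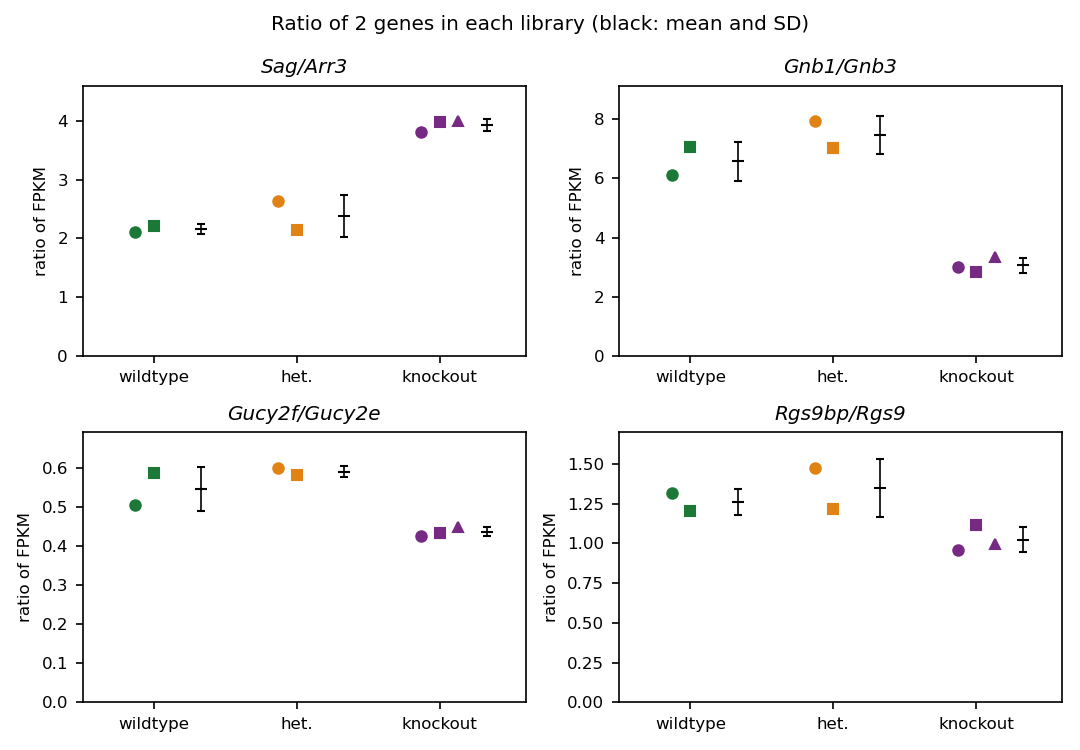
Ratio of the FPKM of 2 genes in each library by genotype, where het. means heterozygous and shapes give the replicate number, with the mean and SD in black. Knockout libraries lie above all controls for Sag over Arr3 (3.82 to 3.99) and below all controls for the other 3 ratios.

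No difference between heterozygous and wildtype libraries passed the threshold in these genes, with only 2 libraries on each side. Libraries of some genes did not overlap, as for Cdhr1, at 187 and 190 FPKM in heterozygous and 209 and 201 in wildtype. Those of others did overlap, as for Gnat1. By limma 0 of 33 passed, and none had an unadjusted p under 0.05, beside 0.00% of all genes passing and 4.0% (1.54% higher and 2.46% lower) at that unadjusted p. With voom the count was also 0. The log2 changes ran from -0.22 for Guca1a to 0.10 for Susd3, with a median of -0.02. Heterozygous 1, a library with lens RNA, was the lowest of all 7 libraries for 14 of the 33 genes (42.4%), beside 23.5% of all genes tested, and the highest for 8 (24.2%), beside 21.9%. With heterozygous 1 and knockout 1 both left out, 18 of the 33 genes separated knockout from control libraries, 3 higher and 15 lower, beside 26.5% of all genes. The part of lens RNA in the levels of these genes was not tested beyond such values.

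Other photoreceptor genes gave the surroundings of the 33. Among 12 tested cone counterparts 1 passed against controls, Gnb3, beside 0.614% of all genes, and their median log2 change was -0.06. Of 30 further rod and photoreceptor genes 1 passed, Cerkl, a gene related to ceramide kinase, which was at 7.12, 7.09, 6.98 and 7.26 FPKM in controls and rose to 12.7, 12.5 and 12.3 FPKM in knockout libraries (log2 change 0.73 ± 0.05, SE; limma, adjusted p = 0.000498). Some of its exons overlap Itga4 on the other strand and Neurod1 on the same strand, so its reads may include those genes. The median of the 30 was -0.00. In every knockout library 4 of the 30 were higher than all controls and 7 lower, beside 6.75% and 6.26% of all genes. At an unadjusted p under 0.05 (limma) 4 were higher and 6 lower, beside 6.76% and 5.46%. Rd3, an inhibitor of the guanylate cyclases, was at 34.2 to 38.7 FPKM in knockout libraries and 23.7 to 31.1 FPKM in controls, and did not pass (adjusted p = 0.162, limma).

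Reactive glia and microglia markers were higher beside these levels. The marker lists were chosen with earlier results of these data known, so their counts are a description and not a test. Of 11 reactive glia markers 8 passed against controls, all higher, beside 0.614% of all genes. All 11 had log2 changes above 0. The summed FPKM of the 11 was 147 to 177 in knockout libraries and 29.3 to 40.8 in controls. Of 7 tested microglia markers 4 passed, all higher, and all 7 had log2 changes above 0. The sum of all 10 microglia markers was at 36.6 to 39.7 FPKM against 17.3 to 19.9 FPKM. No marker on either list was at 0 in any library. Of 9 Mueller glia markers 1 passed against controls, higher. Their log2 changes were above 0 for 4 and below 0 for 5, with a median of -0.03. By limma 0 of 18 markers of bipolar, amacrine and ganglion cells passed against controls, beside 0.614% of all genes. An unadjusted p under 0.05 was reached by 0 of those, beside 12.2%. Their median log2 change was -0.08, with 14 of the 18 below 0, where 49.2% of all genes were below 0. The part of glial RNA in the levels of the rod genes was not tested.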

How the data were processed

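The submitters deposited 1 table of FPKM, computed by the authors, with 1 column for each of the 7 libraries. Per the labels' protocols, poly-T beads selected the RNA and the kit was NEBNext Ultra, so libraries carry no strand mark. DESeq, HTSeq, Bowtie2 2.0.6 and TopHat2 2.0.9 and the builds mm10 and GRCm38 are named, without roles, per the submitters' processing notes; their order, settings and annotation were not given in the sources used here. Each gene's FPKM fitted the length of its merged exons over all transcripts (GENCODE mouse M21), so levels of genes whose transcripts differ in length are not comparable. With these lengths 96.8% of values above 0 were whole reads within a tolerance of 0.01.

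From the deposited FPKM, log2(FPKM + 1) was tested with limma 3.58.1 in R 4.3.3, with a mean-variance trend and Benjamini-Hochberg adjustment over the 15472 genes that averaged 1 FPKM or more; this scale understates changes of low genes. One fit with 3 genotypes had 4 residual degrees of freedom, and a fit of knockout against all controls had 5. An exact permutation test of 3 against 4 libraries cannot reach 0.05 two-sided, so ratios carry no test. Genes to name were drawn from all 33 genes, Agbl5, the cone gene of each pair, and from each other list up to 4 members with the smallest p and any that passed. The members and lists were chosen with earlier results of these data known. The test was tested on simulated data. Alternatives changed the pseudocount, filter, scaling, covariates, block and libraries. The covariates were the lens level and the level of Ddx3y, a sex-linked gene.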

Additional observations from a re-analysis of the deposited data

Results flagged for a closer look

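In 51 sets of 4 control libraries, 1 library was set far from the other 3 by Dixon's test in 4 cases, where chance gives about 1 in 20. Gnb5 was at 195.7 FPKM in heterozygous 1 and 232.8 to 236.7 FPKM in the other 3 controls. Guca1a was at 475.9 FPKM in heterozygous 1 and 651 to 676 FPKM in the others. The ratio of Gngt1 to Gnat1 was 0.0318 in heterozygous 1 and 0.0442 to 0.0463 in the others. The ratio of Cngb1 to Cnga1 was 0.808 in wildtype 1 and 0.714 to 0.724 in the others.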

How the results depend on the processing

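Against wildtype, 50 genes passed, and 28 passed on the TPM scale, 28 with lens level and 33 with Ddx3y level as covariate, 3 without both lens-rich libraries, 77 with voom, and 5 to 53 with each library left out. Against heterozygous libraries 49 passed, 0 without both lens-rich libraries (1313 at an unadjusted p under 0.05), 77 with voom, and 14 to 40 with a library left out. Between heterozygous and wildtype 0 passed, 19 with no filter, and 0 to 3 with a library left out. Against all controls 95 passed, 63 on the TPM scale, 48 without both lens-rich libraries, 148 with voom, and 45 to 90 with a library left out. Of the 33 genes, Sag alone passed against controls with a filter at 5 FPKM (1 gene) and with voom (1 gene), and leaving out any library passed 0. The labels do not pair the replicate numbers. Correlations of the deviations of libraries with the same number ran from -0.02 to 0.43, and those with different numbers from -0.43 to 0.25. The value of 0.43 was that of heterozygous 1 and knockout 1, the libraries with lens RNA. With the replicate number as a block the 3 knockout comparisons passed 3, 0 (1449 at an unadjusted p under 0.05) and 38 genes. Only knockout has a replicate 3, so the block sets that library aside. The log2 changes with the block equal those with knockout 3 left out. The count of 13 genes without overlap ran from 13 to 16 with a library left out, where the share over all genes, 13% with all libraries, ran from 15.5% to 22.8%, since fewer libraries separate more easily.

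Against wildtype 25 of the 33 genes kept their sign under every alternative, and against controls 26. Against wildtype the changes of sign were Guca1b (-0.0018 with Ddx3y), Rcvrn (-0.026 with lens, -0.012 with Ddx3y, -0.013 without both lens-rich libraries), Rom1 (0.055 with the block) and Cdhr1 (0.0015 by median-of-ratios, 0.010 with lens, 0.0016 with the block, 0.0195 without both lens-rich libraries). Against controls they were Gngt1 (0.101) with the block, Cngb1 (-0.0020) on the TPM scale, and Guca1a (-0.131) and Rom1 (-0.040) without both lens-rich libraries, where Guca1a lay below every control. Leaving out a library gave, against wildtype, Cngb1 -0.084 to 0.025, Guca1b -0.057 to 0.112, Rcvrn -0.063 to 0.083, Rom1 -0.127 to 0.071, Prcd -0.096 to 0.183, Prom1 -0.0089 to 0.037, Cdhr1 -0.031 to 0.026 and Susd3 -0.063 to 0.129. Against controls it gave Gngt1 -0.176 to 0.101, Cngb1 -0.040 to 0.038, Gnb5 -0.110 to 0.012, Guca1a -0.078 to 0.091, Rcvrn -0.018 to 0.067, Rom1 -0.015 to 0.121 and Susd3 -0.065 to 0.0093. Outside the 33, the cone genes Gngt2 (0.095) and Pde6h (0.054) changed sign with the block, and ran from -0.139 to 0.095 and from -0.083 to 0.054 with a library left out. The cause was not tested. The 31 genes with recovered reads held 1032 to 124250 reads in each library, while each genotype had only 2 or 3 libraries, so the spread between libraries was estimated from few values.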
